A study of Rattus norvegicus with 24 samples.

Results

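The livers of 11 adult female Sprague-Dawley rats were compared to ask what a high-fat diet (HFD) of their own did in females descended from an HFD-fed grandfather. The 11 were chosen by their titles, out of 24 arrays in the series. In 5 females (arrays 24, 44, 45, 46 and 47) the animal's own diet was the HFD, and in 6 (arrays 37 to 42) it was chow. All 11 belonged to the F2 generation of founders (F0) that had eaten an HFD, here called the HFD line. The own diets lasted 12 weeks, and the labels give the fat content of the HFD as 42 or 45% of energy. The other 13 arrays held F2 females of chow-fed founders, 7 on chow and 6 on the HFD, and serve in the shared model and to test whether the response differed between the lines. The labels give no diet for the F1 parents. They name no litter, parent or grandfather for any female, so p-values measure the spread between these samples, and females that share a grandfather would make them too small. The series text speaks of at least 6 animals per group, and the HFD-line HFD group analysed here has 5.

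Cholesterol is built from acetyl-CoA through mevalonate, farnesyl diphosphate and squalene to lanosterol, which is then trimmed to cholesterol. In liver the genes of this pathway are switched on together by the membrane-bound factor SREBP2 when sterols in the endoplasmic reticulum are low, and are turned down when cholesterol arrives with the diet. High-fat feeding also loads the hepatocyte with fatty acids, which are burned in mitochondria, exported in lipoproteins or stored in lipid droplets.

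Levels are log2(value + 16) of the deposited array intensity, so a difference of 1 is a doubling at high signal and an understatement at low signal. Differences are HFD minus chow, written with their standard error. Adjusted p-values come from limma with the Benjamini-Hochberg method across all 15687 tested probe sets, and the threshold was 0.05. A probe set is the group of probes that reads 1 transcript region. The tissue was bulk liver, in which fewer cells of a type and less RNA per cell cannot be told apart.

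The labels name the tissue as liver, while the growth protocol mentions gonadal white fat. All 10 hepatocyte markers on the array were above the filter on dim probe sets, with a summed intensity of 70043 to 84421 on chow and 70793 to 77755 on the HFD. Adipoq and Lep, the hormones of fat cells, lay between 5.55 and 6.26 on every array, close to the filter's minimum of 5.72. Within the 11 arrays the pairwise correlations ran from 0.972 to 0.991, with the lowest mean correlations for the HFD arrays 45 (0.976) and 24 (0.977). Over all 24 arrays, with group means removed, arrays 21, 22, 24 and 25 lay at 0.364 to 0.469 on the first principal component and the other 20 at -0.265 to 0.151, so HFD array 24 stands apart with 3 arrays of the chow line.

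The arrays differed in their medians, and how the deposited values were normalized is not stated in the sources at hand. The median log2 level over the probe sets tested averaged 7.96 ± 0.07 over the 6 chow arrays and 7.83 ± 0.08 over the 5 HFD arrays (mean ± SD). Array 37 was the brightest of the 11, at 8.08, and array 45 the dimmest, at 7.73. The median difference over all probe sets tested was -0.09 as deposited, near 0 (-0.0028) after quantile normalization, and 0.04 after centring each array on its median, a shift of 0.12. As deposited, 11228 probe sets (71.6%) lay below 0 and 4459 (28.4%) above. For named falls, the adjusted p under quantile normalization or centring is therefore given where it ends the call.

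**Figure D1:**
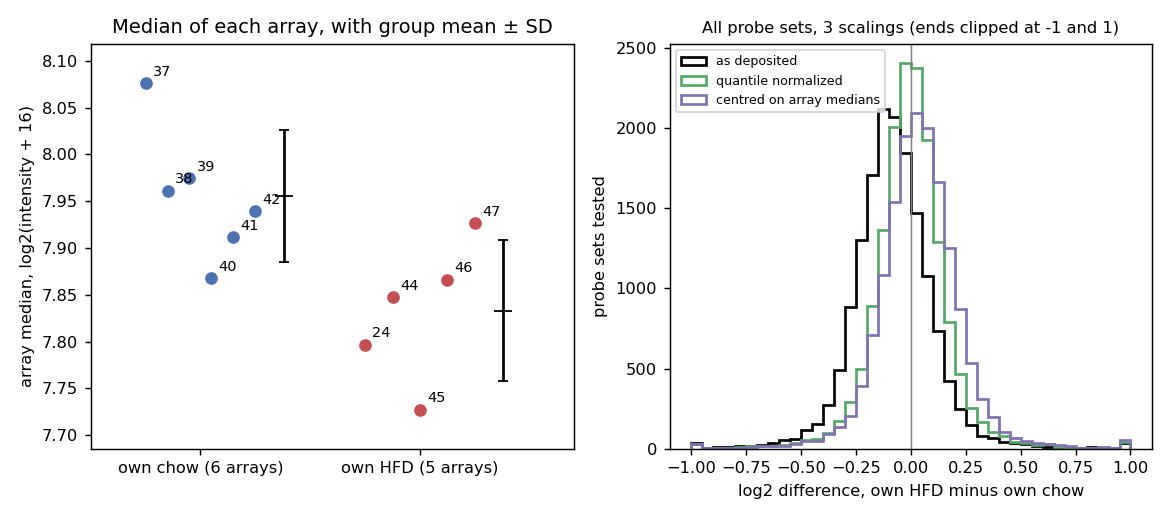
Left: the median log2 level of each array over the probe sets tested, by own diet, with the group mean ± SD; the array number stands beside each point. Right: the number of probe sets at each log2 difference (HFD minus chow) as deposited, quantile normalized and centred, with the deposited curve lying to the left of 0 at a median of -0.09.

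On the HFD, 15 probe sets were higher and 103 were lower, which are 12 and 90 genes, and 2 and 11 of the probe sets have no single gene name here. The calls made up 0.0956% and 0.657% of all probe sets tested, or 0.752% together. After quantile normalization 34 were higher and 56 lower, and after centring 32 and 39, so that the share of calls that were rises went from 12.7% to 37.8% and 45.1%. All 15 rises and 37 of the falls passed as deposited, after quantile normalization and after centring (0.331% of all probe sets). Leaving out 1 array at a time gave 5 to 15 rises and 49 to 102 falls. The counts were 7 and 58 without array 37, 5 and 51 without array 42, 11 and 58 without array 24, 9 and 63 without array 44, and 9 and 49 without array 45. The probe sets that passed in each of the 11 fits with an array left out were 3 rises and 36 falls.

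The first block of the sterol pathway, from acetyl-CoA to farnesyl diphosphate, was lower on the HFD at each measured step. Of 8 genes listed, 5 could be tested and all 5 fell, each with every HFD array below every chow array, which 2.71% of all probe sets showed. Their median difference was -1.39 as deposited and -1.26 after quantile normalization. The other listed genes were not analysed here.

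Acat2, the cytosolic thiolase that joins 2 acetyl-CoA at the entry of the pathway, stood at 10.12, 10.38, 9.64, 9.82, 10.0006 and 10.03 on chow arrays 37 to 42. On HFD arrays 24, 44, 45, 46 and 47 it read 8.04, 8.79, 8.33, 7.86 and 8.25. The groups did not overlap, and the gene fell by 1.74 ± 0.26 (3.35-fold, adjusted p = 0.000902). A further Acat2 probe set gave -1.66 ± 0.27 (adjusted p = 0.00177).

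Pmvk, the kinase that adds the final phosphate to mevalonate, lay between 8.77 and 9.02 on chow. On the HFD it lay between 7.54 and 8.22, and it fell by 0.96 ± 0.16 (1.94-fold, adjusted p = 0.00389). Its groups did not overlap, and array 24 was the highest of the HFD arrays. Mvd, which decarboxylates mevalonate diphosphate, read 9.50, 9.78, 8.52, 9.56, 9.14 and 9.08 on chow and 7.61, 8.45, 8.21, 7.27 and 7.82 on the HFD. Chow array 39 and HFD array 44 came nearest to each other without overlap, and the gene fell by 1.39 ± 0.28 (2.62-fold, adjusted p = 0.0134).

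Idi1, the isomerase that supplies dimethylallyl diphosphate, had the largest fall of the block, with 10.57, 10.34, 9.18, 10.11, 9.90 and 10.42 on chow. The HFD arrays read 7.81, 8.48, 7.58, 7.62 and 8.06, giving -2.17 ± 0.32 (4.52-fold, adjusted p = 0.000902). Chow array 39 was again the lowest of its group. Fdps, the synthase that makes farnesyl diphosphate, moved least, from 9.54 to 9.997 on chow and 9.19 to 9.42 on the HFD (-0.42 ± 0.10, adjusted p = 0.0367). Its call was lost after quantile normalization (adjusted p = 0.202) and after centring (0.159). It passed only without array 38, 39 or 41, and ran from 0.0623 to 0.104 without each of the other arrays.

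The second block, from squalene to cholesterol, held 14 listed genes, of which 13 were tested and 10 fell. All 13 lay below 0, and all 13 had every HFD array below every chow array. The median was -0.87 as deposited and -0.72 after quantile normalization. After quantile normalization 8 passed, and the same number passed under all 3 scalings.

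Fdft1, the squalene synthase, lay between 11.67 and 12.15 on chow and between 10.72 and 11.29 on the HFD, a fall of 0.86 ± 0.13 (adjusted p = 0.000902). Sqle, the epoxidase that begins the sterol branch, read 10.80, 10.84, 9.58, 10.49, 10.47 and 10.65 on chow. On the HFD it read 6.83, 8.87, 8.09, 7.71 and 8.72. Array 24 was the lowest HFD array and array 39 the lowest chow array, and no HFD array reached a chow array. The difference was -2.43 ± 0.35 (5.38-fold, adjusted p = 0.000902), the largest of all probe sets that passed, and -2.12 without array 24 (adjusted p = 0.00346).

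Lss, which closes squalene epoxide into lanosterol, read 10.19 to 10.86 on chow and 9.05 to 9.51 on the HFD (-1.23 ± 0.19, adjusted p = 0.00093). Cyp51, the lanosterol demethylase, read 11.61 to 12.21 on chow and 10.39 to 11.11 on the HFD (-1.19 ± 0.18, adjusted p = 0.000956). Neither gene's groups overlapped, and array 24 was the lowest HFD array of Cyp51. Msmo1, a methylsterol oxidase of sterol demethylation, was spread wider on the HFD, at 9.23 on array 24, 9.73 on 46, 9.80 on 45, 10.76 on 44 and 10.82 on 47, against 11.04 to 11.95 on chow (-1.53 ± 0.27, adjusted p = 0.00441).

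Hsd17b7, a ketosteroid reductase of the same demethylation complex, fell by 1.25 ± 0.23 (adjusted p = 0.0056), and Erg28, the scaffold of that complex, by 0.60 ± 0.10 (adjusted p = 0.00386). Nsdhl, the dehydrogenase that works beside them, did not pass (-0.34 ± 0.09, adjusted p = 0.0692). Neither did Lbr, a sterol reductase that also anchors chromatin to the nuclear lamina (-0.26 ± 0.10, adjusted p = 0.22). Tm7sf2, another sterol reductase, fell by 0.87 ± 0.18 (adjusted p = 0.015). The adjusted p of Tm7sf2 was 0.0603 after quantile normalization, 0.0595 after centring and 0.058 without array 24.

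Of the last steps, Ebp, the sterol isomerase, fell by 0.63 ± 0.13 (adjusted p = 0.0188). Its adjusted p was 0.0594 after quantile normalization, 0.0714 without array 24 and 0.0537 without array 45. Sc5d, the desaturase that follows it, did not pass (-0.28 ± 0.09, adjusted p = 0.119). Dhcr7, the final reductase, read 11.30, 11.25, 10.87, 11.16, 11.09 and 11.17 on chow and 9.38, 10.02, 9.93, 9.91 and 9.73 on the HFD. The SDs were 0.15 and 0.25 with no overlap, and it had the smallest adjusted p of all probe sets tested (-1.35 ± 0.12, 2.54-fold, adjusted p = 3.74e-07).

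**Figure D2:**
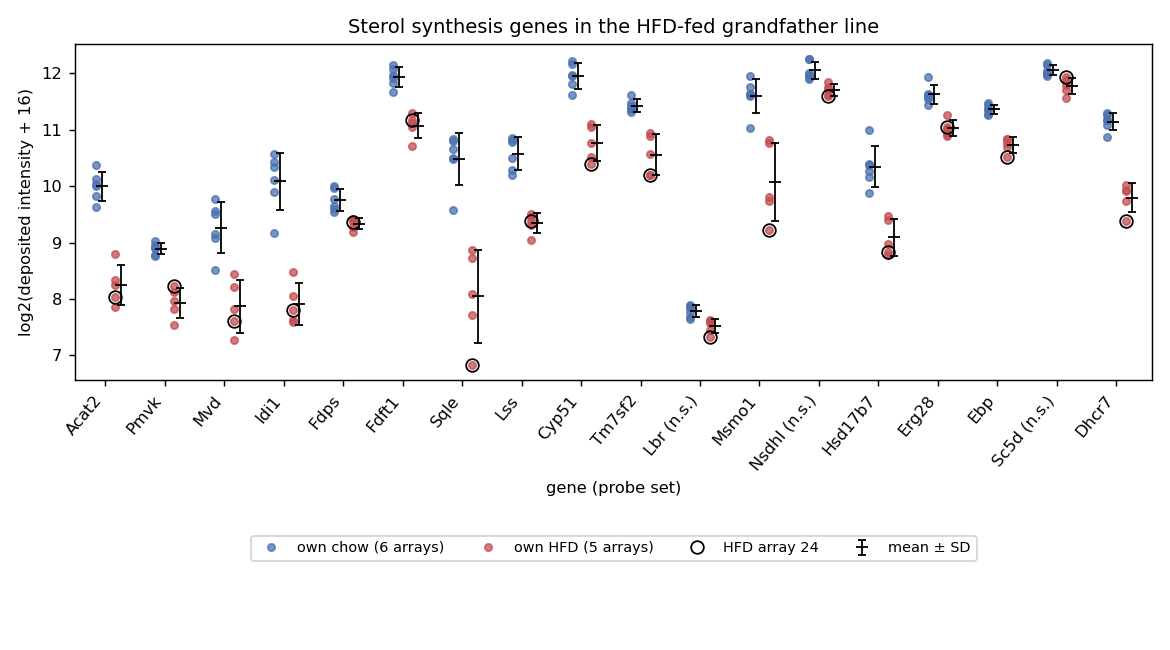
The log2 level of 18 sterol synthesis genes in pathway order, with 6 chow arrays (blue), 5 HFD arrays (red), HFD array 24 circled and the group mean ± SD in black. The HFD arrays lie below the chow arrays for each gene; n.s. marks the 3 genes that did not pass (Lbr, Nsdhl and Sc5d).

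The 15 sterol genes that fell were averaged on each array to show how the animals ranked, as a description with no test. The mean level on chow was 10.86, 10.88, 10.34, 10.70, 10.65 and 10.74 on arrays 37 to 42, and on the HFD 9.20, 9.73, 9.46, 9.25 and 9.62 on arrays 24, 44, 45, 46 and 47. Chow array 39 was the lowest of its group, and arrays 24 and 46 were the lowest of theirs. After quantile normalization the group means were 10.65 ± 0.17 (SD, n = 6) and 9.56 ± 0.22 (n = 5), against 10.69 ± 0.19 and 9.45 ± 0.23 as deposited. The 15 genes were chosen by their fall on these same arrays, so the gap between the group means is no further support.

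The promoters of these genes are shown because the genes moved together. Binding of a regulator to them was not tested. RefSeq (GRCr8) gave a promoter, 250 bases before to 50 after the start, for 15 of the 18 tested genes, and none was given for Fdft1, Pmvk and Sqle. The 5 with the largest falls are printed from 150 bases before the start to the base before it, on the strand of the gene, with CCAAT boxes (CCAAT, or ATTGG on the other strand) and GC boxes (GGGCGG, or CCGCCC) in capitals.
Idi1 (chr17:66547525-66547674, - strand): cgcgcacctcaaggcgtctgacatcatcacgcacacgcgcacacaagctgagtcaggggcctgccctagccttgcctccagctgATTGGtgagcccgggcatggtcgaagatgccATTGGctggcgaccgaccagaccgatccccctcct
Acat2 (chr1:50100690-50100839, + strand): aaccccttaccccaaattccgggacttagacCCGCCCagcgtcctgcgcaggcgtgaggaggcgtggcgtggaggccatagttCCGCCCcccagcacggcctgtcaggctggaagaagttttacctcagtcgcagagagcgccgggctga
Msmo1 (chr16:29746963-29747112, + strand): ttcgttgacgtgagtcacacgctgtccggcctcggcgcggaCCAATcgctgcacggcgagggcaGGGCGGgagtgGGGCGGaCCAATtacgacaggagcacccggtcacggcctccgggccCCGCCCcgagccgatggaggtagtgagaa
Mvd (chr19:67414975-67415124, - strand): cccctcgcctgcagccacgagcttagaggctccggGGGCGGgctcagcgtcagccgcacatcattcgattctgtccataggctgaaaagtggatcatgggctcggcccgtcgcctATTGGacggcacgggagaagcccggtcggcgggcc
Dhcr7 (chr1:208444284-208444433, + strand): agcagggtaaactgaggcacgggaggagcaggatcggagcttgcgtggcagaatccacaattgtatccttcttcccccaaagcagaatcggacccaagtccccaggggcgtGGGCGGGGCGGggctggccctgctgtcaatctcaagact
Idi1 shows a pair of inverted CCAAT boxes and no GC box, Acat2 shows 2 GC boxes and no CCAAT box, and Msmo1 shows both kinds. Dhcr7 has 2 overlapping GC boxes close to the start. Over the whole promoter, CCAAT was found on either strand in 11 of the 15, against 37.5% of the 33365 promoters in the table, and GGGCGG in 13 of the 15, against 33.1%. The E-box CACGTG was in 1 of the 15, that of Sc5d, against 6.43%. The sterol regulatory element, searched as TCACNCCAC on both strands, matched 0 of the 15 and 1.12% of all promoters, which says only that these letters are not in these windows. The searched motifs do not contain each other, and a match is a description of letters.

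Among genes that sense, take up and move sterol, 1 passed. Of 18 tested members of that list, 1 fell (Stard4), 14 lay below 0, and the median was -0.23 as deposited and -0.12 after quantile normalization. Stard4, a soluble carrier of cholesterol, read 8.36, 8.50, 8.18, 8.24, 8.22 and 8.20 on chow and 7.44, 7.30, 7.17, 7.55 and 7.53 on the HFD. The groups did not overlap, and the gene fell by 0.89 ± 0.12 (adjusted p = 0.000759), in each of the 11 fits with an array left out. Srebf2, which encodes SREBP2, gave -0.49 ± 0.15 (adjusted p = 0.12), Insig1, which retains it in the endoplasmic reticulum, gave -0.41 ± 0.15 (adjusted p = 0.204), and Tmem97, a sterol-responsive membrane protein, gave -0.57 ± 0.18 (adjusted p = 0.125). These 3 did not pass.

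Of 9 tested genes that supply acetyl-CoA or handle ketone bodies, 2 fell. Aacs, which activates acetoacetate for lipid synthesis, read 8.71, 8.64, 8.45, 8.44, 8.67 and 7.90 on chow and 7.13, 7.11, 7.76, 6.23 and 6.12 on the HFD. Array 42 was low among the chow arrays and came nearest to HFD array 45 without overlap, and the difference was -1.60 ± 0.29 (3.03-fold, adjusted p = 0.0056). Acss2, the cytosolic acetyl-CoA synthetase, lay between 11.15 and 11.72 on chow and 10.27 and 10.93 on the HFD (-0.90 ± 0.18, adjusted p = 0.0119). Both passed under all 3 scalings.

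Of 13 tested genes of fatty acid synthesis, elongation and desaturation, 0 passed by limma, 2 had an unadjusted p under the threshold (as did 15.8% of all probe sets, the share to read every unadjusted count of a list against), 5 lay below 0, and the median was 0.09 (0.15 after quantile normalization). Scd, the stearoyl-CoA desaturase, gave 0.27 ± 0.15 (adjusted p = 0.368). Of 11 tested genes of triglyceride synthesis 0 passed by limma (4 unadjusted). Pnpla3, a lipid droplet acyltransferase and lipase, had the largest value of that list and the widest spread, from 5.99 to 11.83 on chow and 8.93 to 12.34 on the HFD (2.18 ± 0.71, adjusted p = 0.139). Dgat2, which adds the last acyl chain to triglyceride, gave 0.21 ± 0.08 as deposited (adjusted p = 0.244) and 0.28 after quantile normalization (adjusted p = 0.0137), where it passed, as it did after centring (0.0351).

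Of 15 tested lipid droplet genes, 1 fell. Cidea, a protein that fuses droplets and is prominent in fatty liver and brown fat, read 8.95, 8.77, 9.35, 9.46, 9.63 and 9.64 on chow and 7.74, 7.84, 7.81, 7.98 and 8.52 on the HFD. All HFD arrays were below all chow arrays, and the gene fell by 1.32 ± 0.23 (2.50-fold, adjusted p = 0.00397). Plin2, the main coat protein of hepatic droplets, gave -0.47 ± 0.21 (adjusted p = 0.288), and Pnpla2, the adipose triglyceride lipase, gave -0.59 ± 0.15 (adjusted p = 0.0563). Neither passed.

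Mitochondrial beta-oxidation, which burns fatty acids, had 18 tested genes, and 0 passed by limma (2 unadjusted). All 18 lay below 0, with a median of -0.18, but 10 did so after quantile normalization (median -0.04), where 51% of all probe sets did, so the direction rested on the scaling. Oxidative phosphorylation (36 of 40 below 0, median -0.15) and cytosolic ribosomal proteins (27 of 27, median -0.16) also held 0 that passed (10 and 7 unadjusted), with medians of -0.01 and -0.03 after quantile normalization. The 14 tested genes of PPAR alpha targets and peroxisomal oxidation held 0 that passed as well (2 unadjusted, median -0.18, and -0.09 after quantile normalization).

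Several falls were of enzymes that act on steroids, conjugates or carbon dioxide. Hsd11b1, which regenerates active glucocorticoid from its inert form, read 9.31, 9.13, 8.72, 8.63, 7.14 and 7.37 on chow and 7.33, 6.23, 5.85, 5.69 and 5.75 on the HFD. Chow arrays 41 and 42 sat below the other 4 by over 1, and HFD array 24 overlapped them. It fell by 2.21 ± 0.51 (4.64-fold, adjusted p = 0.0353). Its adjusted p was 0.0579 after quantile normalization and 0.0595 after centring, and it was lost without array 37, 38, 39, 40, 44, 45, 46 or 47 (0.0606 to 0.096). The other tested genes of glucocorticoid action, 10 in number, did not pass, and the list's median was -0.20 as deposited, -0.08 after quantile normalization and -0.12 without array 24.

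Gsta3, an alpha-class glutathione transferase, read 11.34, 11.02, 11.49, 10.98, 10.07 and 10.11 on chow, where arrays 41 and 42 were again the low pair. On the HFD it read 9.10, 9.53, 8.85, 10.13 and 9.59, and it fell by 1.40 ± 0.31 (adjusted p = 0.0262). HFD array 46 overlapped the low pair. The call was lost after quantile normalization (adjusted p = 0.0708), after centring (0.0597) and without array 37, 38, 39, 24, 44 or 45 (0.0507 to 0.0936). Gstm2, a mu-class transferase, read from 11.53 to 11.92 on chow and 10.94 to 11.39 on the HFD (-0.56 ± 0.10, adjusted p = 0.00618), and passed under all 3 scalings and in all 11 fits with an array left out. All 18 tested members of the transferase list lay below 0, with 2 that fell (Gsta3 and Gstm2) and a median of -0.21, while 13 lay below 0 after quantile normalization. Members of these families are close in sequence, and how far their probes cross-react was not tested.

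Carbonic anhydrases hydrate carbon dioxide. Of 12 tested, 2 fell. Car12, a membrane-bound form, read 8.53, 9.34, 9.80, 8.62, 8.63 and 8.73 on chow and 7.76, 7.40, 6.69, 7.07 and 8.08 on the HFD (-1.54 ± 0.30, 2.91-fold, adjusted p = 0.0118). The groups did not overlap, and the call held under all 3 scalings and in all 11 fits with an array left out. Car2, the cytosolic form, fell by 0.80 ± 0.18 (adjusted p = 0.0361), with an adjusted p of 0.107 after quantile normalization, and 0.0674 to 0.126 without array 37, 39, 41, 42, 24, 44, 45 or 46.

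Among blood proteins, transporters and growth genes, single members fell. Orm1, the acute-phase orosomucoid, was the 1 of 20 tested acute-phase and inflammatory genes that passed (-0.99 ± 0.22, adjusted p = 0.0327), and its adjusted p was 0.0924 after quantile normalization and 0.0519 to 0.119 without array 37, 38, 39, 42, 45 or 46. Abcc3, an exporter of conjugates into blood, was the 1 of 11 bile and sterol transporters (-0.70 ± 0.16, adjusted p = 0.0327). It read 6.90 to 6.99 on 4 HFD arrays and 7.63 on array 47, inside the chow range of 7.61 to 7.91, and its adjusted p was 0.0719 after quantile normalization and 0.0523 to 0.0922 without array 37, 38, 39, 41, 24, 44, 45 or 46. Phlda2, an imprinted gene that restrains placental growth, was the 1 of 12 imprinted growth genes. It read 6.34 to 6.68 on chow and 5.55 to 6.14 on the HFD with no overlap, and fell by 0.69 ± 0.11 (adjusted p = 0.000956) in each scaling and each fit with an array left out.

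Markers of other cell types were read beside these results. Of 9 tested Kupffer cell markers, the resident macrophages of liver, all 9 lay below 0, where 71.6% of all probe sets did, and 1 fell. After quantile normalization 7 of 9 lay below 0, where 51% of all probe sets did. The summed intensity of these markers was 5180 to 7526 on chow (median 6783) and 4696 to 6077 on the HFD (median 5263). The median difference was -0.33 (-0.19 after quantile normalization). Marco, a scavenger receptor of these cells, read 6.50, 7.55, 6.47, 6.30, 7.54 and 6.73 on chow and 5.99, 6.20, 5.31, 5.26 and 6.34 on the HFD (-1.03 ± 0.24, adjusted p = 0.0361). Its adjusted p was 0.0832 after centring and 0.0657 to 0.121 without array 38, 41, 42, 24, 45 or 46. Epcam, a surface protein of bile duct cells, fell by 0.76 ± 0.15 (adjusted p = 0.0139, and 0.0906 after centring), the 1 of 8 markers of that type.

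The adipocyte list summed to 3637 to 4511 on chow and 2782 to 3544 on the HFD, without overlap. The sum was taken as deposited on the linear scale, so bright members weigh most in it. Of its 10 tested members 1 fell, Cidea, and 5 lay below 0. The median difference of the list was 0.01 as deposited and 0.06 after quantile normalization. The fat hormones Adipoq (0.11 ± 0.11, adjusted p = 0.658) and Lep (0.12 ± 0.10, adjusted p = 0.582) did not pass. Pancreatic acinar markers summed to 2947 to 5602 on chow and 684 to 4072 on the HFD. Of 9 tested, 0 passed by limma (1 unadjusted) and 3 lay below 0. Cpa1, a pancreatic carboxypeptidase, gave -1.97 ± 0.51 (adjusted p = 0.0625), and its 5 HFD arrays ran from 7.13 to 11.79. No marker in any of these lists was at 0 on every array, and the part of cell make-up in the results was not tested.

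**Figure D3:**
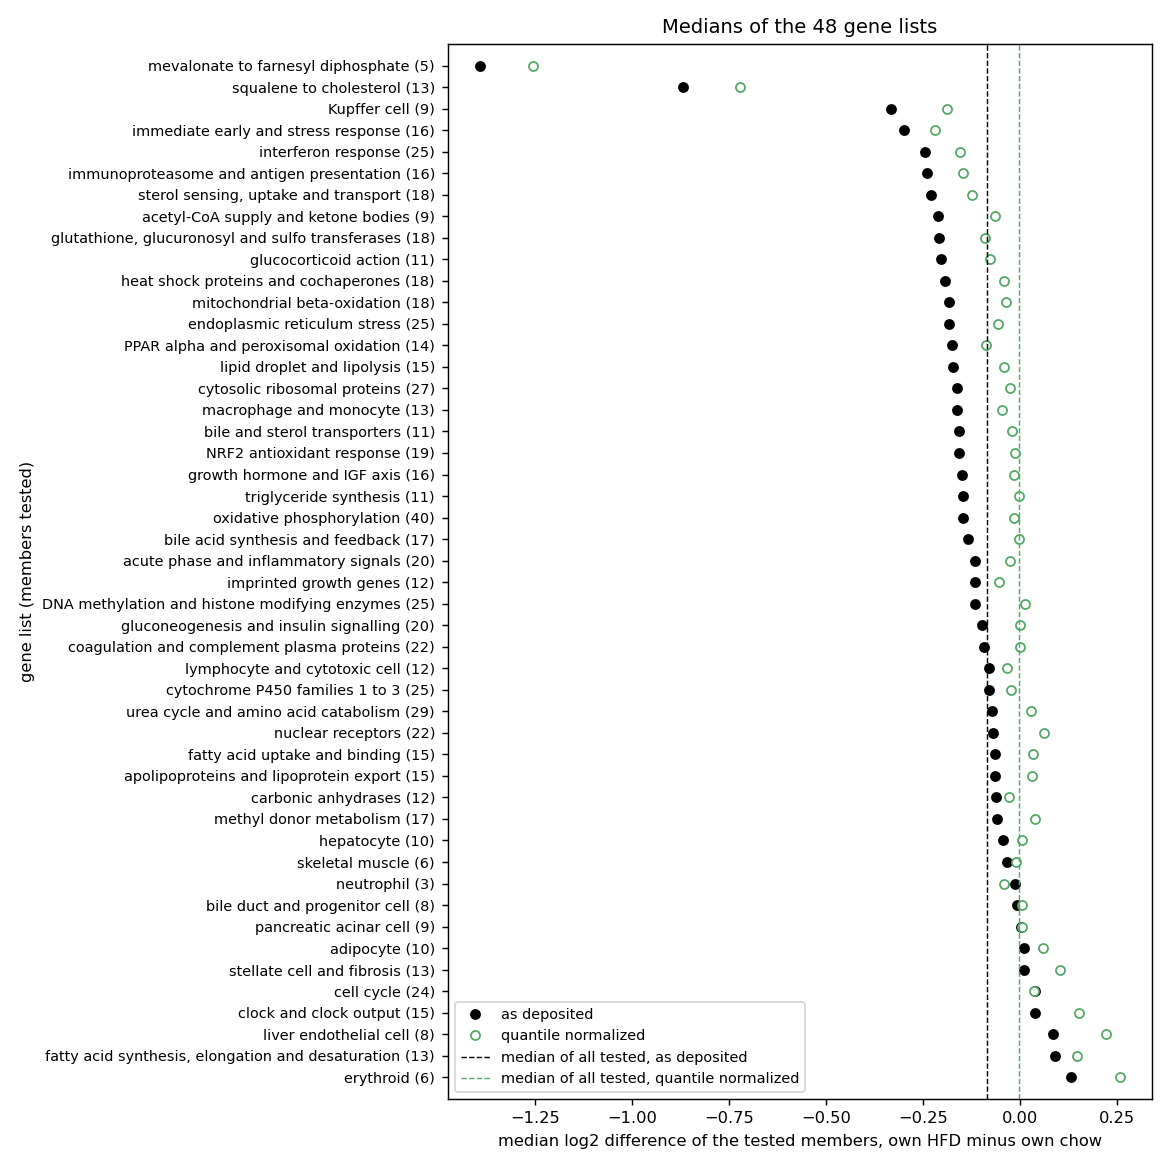
The median log2 difference (HFD minus chow) of the tested members of 48 gene lists, as deposited (black) and after quantile normalization (green), with dashed lines at the median of all probe sets tested (-0.09 and -0.0028); the number of members tested stands in brackets. The lists of the sterol pathway lie at -1.39 and -0.87, and every other list lies between -0.33 and 0.13 as deposited.

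Of the 48 lists, 34 had no member that passed. Interferon response genes, 5 of which had an unadjusted p under the threshold, lay below 0 in 24 of 25, where 71.6% of all probe sets did. After quantile normalization 22 of 25 did, where 51% of all probe sets did. The median of that list was -0.25 (-0.16 after quantile normalization). Immediate early and stress genes had a median of -0.30 (13 of 16 below 0, 6 unadjusted, and -0.22 after quantile normalization). Per2, a repressor of the circadian clock, had the largest value above 0 in the clock list, where 4 of 15 had an unadjusted p under the threshold (1.13 ± 0.30, adjusted p = 0.0692). Endothelial markers (median 0.08) and erythroid markers (0.13, with 6 of 6 above 0) had medians above that of all probe sets, and 0 of their 8 and 6 tested members passed by limma (0 unadjusted). Array 24 had the highest summed intensity of the HFD arrays for both lists, and without it the medians were 0.06 and 0.06, with 2 of the 6 erythroid markers below 0.

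The other large falls were a mixed set of genes. Mab21l3, a gene of little-studied function, read 7.11 to 8.18 on chow and 5.40 to 6.31 on the HFD (-1.54 ± 0.27, 2.91-fold, adjusted p = 0.00389). Slc13a3, a sodium-coupled carrier of dicarboxylates, read 9.28, 9.37, 8.76, 9.01, 9.03 and 9.61 on chow. On the HFD it read 7.06, 7.64, 7.45, 8.41 and 8.38, all below chow (-1.39 ± 0.26, 2.62-fold, adjusted p = 0.00991). Both passed under all 3 scalings and in all 11 fits with an array left out.

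Further falls were singled out after their values were seen. Acsf2, a mitochondrial acyl-CoA synthetase, fell by 1.14 ± 0.21 (adjusted p = 0.0056), and Gstt3, a theta-class glutathione transferase, by 1.17 ± 0.22 (adjusted p = 0.00999). Dtx3l, a ubiquitin ligase of DNA damage and interferon responses, fell by 0.62 ± 0.12 (adjusted p = 0.0126), from 9.49 to 9.94 on chow and 8.77 to 9.20 on the HFD. Pls3, an actin-bundling plastin, fell by 0.72 ± 0.13 (adjusted p = 0.00412), and Chpf, a chondroitin polymerising factor, by 0.68 ± 0.13 (adjusted p = 0.0134). These 5 passed under all 3 scalings and in all 11 fits with an array left out. The groups of Acsf2 overlapped. Gstt3 did not pass when limma was fitted to only the 11 arrays of the HFD line (adjusted p = 0.0626). In that fit the calls of Fdps, Marco, Orm1, Fads3, Ugt2a3, Ifitm3, Serpina3l, Selenoi and Tamm41 were also lost (adjusted p = 0.0658 to 0.1035). So were the calls of the rises Aknad1, Glt1d1, Or52k2 and Tsc22d1 (adjusted p = 0.0632 to 0.093).

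Others were lost under a change of scale. Fads3, a member of the fatty acid desaturase family, fell by 1.04 ± 0.24 (adjusted p = 0.0361, and 0.0626 after quantile normalization). Hacl1, the lyase that shortens 2-hydroxy and branched fatty acids in peroxisomes, fell by 0.84 ± 0.19 (adjusted p = 0.0361, and 0.0918 after quantile normalization). Ugt2a3, a glucuronosyltransferase, fell by 0.86 ± 0.19 (adjusted p = 0.0328, and 0.0948 after quantile normalization), and Ifitm3, an interferon-induced antiviral protein, by 0.84 ± 0.20 (adjusted p = 0.0472, and 0.105 after quantile normalization). Their groups overlapped. Without array 24 the adjusted p was 0.117 for Fads3, 0.12 for Hacl1, 0.0503 for Ugt2a3 and 0.171 for Ifitm3, and the calls were lost without 6, 9, 8 and 9 of the 11 arrays.

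The rises were fewer. Every HFD array lay above every chow array for 12 of the 15 probe sets, against 0.331% of all probe sets. The groups overlapped for the other 3. The 15 were called on these same arrays, so the separation is no further support. C16h10orf71, named for an open reading frame, read 5.02, 6.47, 6.21, 6.26, 5.98 and 5.74 on chow and 6.83, 9.42, 8.12, 7.19 and 7.69 on the HFD (1.90 ± 0.41, 3.74-fold, adjusted p = 0.0235). A second probe set of it gave 1.88 ± 0.42 (adjusted p = 0.0298). HFD array 44 was the highest in both, and the calls were lost without array 37, 42, 44 or 45 (0.0532 to 0.0701 and 0.0703 to 0.0864). Of the other 2 tested probe sets of this gene, neither passed (1.45 and 0.66). Array 24 was the lowest HFD array in both.

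Spink1l, related to the trypsin inhibitor Spink1, read 5.25, 6.89, 6.68, 5.83, 6.79 and 5.71 on chow. On the HFD it read 8.07, 9.29, 7.02, 7.77 and 7.996, so that array 45 came nearest to the chow arrays without overlap (1.84 ± 0.37, 3.57-fold, adjusted p = 0.0147, and 0.0537 without array 44). Kcnma1, the pore of the calcium-activated BK potassium channel, read 6.57 to 7.39 on chow and 8.92, 8.60, 7.47, 8.68 and 8.90 on the HFD. Array 45 was more than 1 below the other HFD arrays, and the rise was 1.54 ± 0.34 (2.92-fold, adjusted p = 0.0285), with an adjusted p of 0.0529 to 0.0922 without array 39, 41, 42, 24, 44, 46 or 47.

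Tox, a nuclear factor of the HMG-box family, read 8.18, 6.87, 8.10, 7.92, 8.74 and 7.62 on chow and 9.01, 9.27, 8.94, 9.27 and 9.85 on the HFD (1.36 ± 0.27, 2.58-fold, adjusted p = 0.0138). The groups did not overlap, with array 41 the highest of the chow arrays. Setbp1, a SET-binding nuclear protein, went from 7.91 to 8.13 on chow and 8.34 to 8.67 on the HFD (0.50 ± 0.09, 1.41-fold, adjusted p = 0.00389). Tox, Setbp1 and Or51r1 were the rises that passed in all 11 fits with an array left out.

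Or51r1 and Or52k2, genes of the olfactory receptor family, rose by 0.90 ± 0.18 (adjusted p = 0.0147) and 0.51 ± 0.12 (adjusted p = 0.0446). In the order of RefSeq genes on GRCr8 chromosome 1 they lie 1 and 3 genes from Trim21, an antibody-binding ubiquitin ligase, which fell by 0.56 ± 0.13 (adjusted p = 0.0409). The gene between the receptors was left out as dim. Or52k2 ran from 5.43 to 6.27 on chow and 6.33 to 6.58 on the HFD, near the filter's minimum, and was lost without every array but 38 or 39 (0.0633 to 0.14). Trim21 was lost without every array but 41 (0.0517 to 0.113), and its adjusted p was 0.0935 after quantile normalization.

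The other rises were Zfp354a, a zinc finger gene (1.01 ± 0.22, adjusted p = 0.0272), Glt1d1, a putative glycosyltransferase (0.79 ± 0.17, adjusted p = 0.0264), and Synj2, an inositol phosphatase (0.54 ± 0.13, adjusted p = 0.0413). Aknad1 rose by 0.53 ± 0.13 (adjusted p = 0.0445), and Tsc22d1, a leucine zipper factor, by 0.52 ± 0.11 (adjusted p = 0.0247). With an array left out, Glt1d1 was lost without 37, 40, 42, 24, 44 or 47 (up to 0.086), and Zfp354a without 37, 39, 40, 42, 44 or 47 (up to 0.075). Synj2 was lost without every array but 44 (up to 0.0914), and Aknad1 without every array but 40, 45 or 47 (up to 0.164). Tsc22d1 was lost without 45 or 46 (up to 0.0631). A probe set with no gene name here, 10778254, rose by 1.75 ± 0.36 (3.37-fold, adjusted p = 0.0179), and 10813214, also unnamed here, fell by 1.78 ± 0.24 (3.43-fold, adjusted p = 0.000759).

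**Figure D4:**
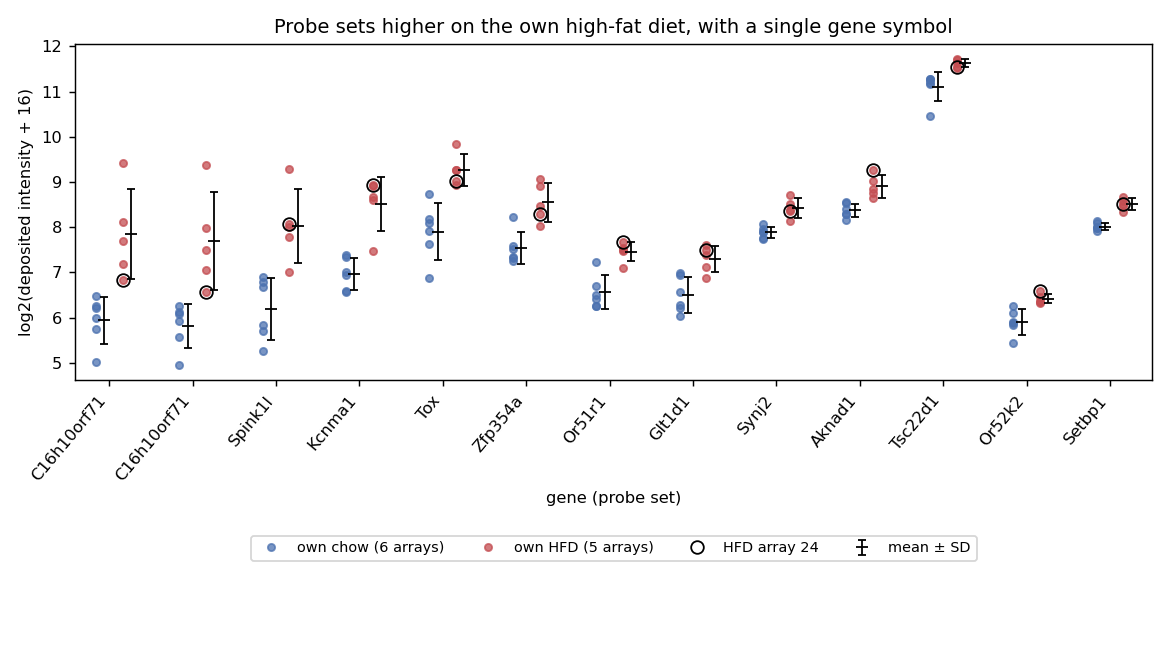
The log2 level of the 13 probe sets with a single gene name that were higher on the HFD, on 6 chow arrays (blue) and 5 HFD arrays (red), with HFD array 24 circled and the group mean ± SD in black. The groups do not overlap for Kcnma1, Tox, Spink1l and Setbp1, and they overlap for Zfp354a, Or51r1 and Glt1d1.

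The same own-diet contrast was set beside that of the chow line, which shares no array with it, and the difference of the contrasts was tested as an interaction. Both contrasts used the same estimate of spread for each probe set, so calls in both lines were not independent. By limma 0 of 15687 probe sets had an adjusted interaction p under the threshold, in the primary fit and in each alternative that was run, and 1523 (9.71%) had an unadjusted p under it. In the chow line 50 probe sets (0.319%) passed. Of the HFD line's calls, 4 rises and 31 falls also passed there. The difference had the same sign in the chow line for 14 of the 15 rises and 91 of the 103 falls. Over all 15687 probe sets tested, 7155 lay below 0 in the chow line.

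The sterol genes were lower in both lines. The median of the first block was -1.39 in the HFD line and -1.45 in the chow line, and of the second -0.87 and -0.74. For Sqle limma gave an interaction of -0.46 ± 0.48, with an unadjusted p of 0.351. Dhcr7 differed by -1.35 in the HFD line and -1.28 ± 0.11 in the chow line, with an unadjusted interaction p of 0.688. Of the 18 tested sterol genes, 1 had an unadjusted interaction p under the threshold, against 9.71% of all probe sets. It was Erg28 (-0.60 against -0.31), with an unadjusted p of 0.0434. After quantile normalization, after centring and without array 24, 0 of the 18 were under the threshold.

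Other falls of the HFD line had chow-line values near or above 0. The 5 that the naming rule picked by their interaction p were Rpa3, a replication protein subunit (-0.64 against 0.20), Serpina3l, a serpin (-0.42 against 0.13), Slc22a21, a carnitine transporter (-0.76 against 0.13), Txndc17, a thioredoxin-like protein (-0.48 against 0.06), and Acyp1, an acylphosphatase (-0.43 against 0.02). Rpa3 was lost without array 24 (0.0601), Acyp1 without 42 or 45 (0.0513 to 0.0537), Txndc17 without 37 or 24 (0.0523 to 0.0557), Slc22a21 without 37, 39, 42, 24 or 45 (up to 0.102) and Serpina3l without 8 of the 11 arrays (up to 0.114). Rpa3 and Serpina3l also lost the call after quantile normalization (0.0773 and 0.238) and after centring (0.0832 and 0.221), and Acyp1 (0.0832) and Slc22a21 (0.0535) after centring. Their unadjusted interaction p ran from 7.38e-05 for Rpa3 to 0.000882 for Acyp1, and none passed after adjustment. These values are as deposited, where the median interaction over all probe sets tested was -0.10, against -0.01 after quantile normalization. Hacl1 (-0.84 against -0.03), Dtx3l (-0.62 against -0.13), Selenoi, which makes phosphatidylethanolamine (-0.45 against 0.01), and Tamm41, a cardiolipin enzyme of mitochondria (-0.36 against 0.08), also had chow-line values near 0. Selenoi lost the call after quantile normalization (0.0505), after centring (0.0598) and without array 37, 42, 45 or 47 (0.061 to 0.0917). Tamm41 lost it after quantile normalization (0.156), after centring (0.193) and without each array but 40 or 46 (0.0536 to 0.121). These genes were chosen on the HFD line's contrast, which is a part of the interaction, so their difference between lines is a description.

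Vnn1, a pantetheinase and a PPAR alpha target, was a gene that rose in the chow line and did not pass in the HFD line. It lay between 7.58 and 9.08 on chow and between 7.33 and 9.22 on the HFD (0.08 ± 0.32, adjusted p = 0.923), while the chow line gave 1.63 (adjusted p = 0.00537). The interaction had an unadjusted p of 0.00142 and an adjusted p of 0.24. It was singled out after its values were seen.

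As deposited, the medians of energy metabolism lists had opposite signs in the lines. The median of all probe sets tested did too, at -0.09 in the HFD line and 0.01 in the chow line. So did lists outside energy metabolism, such as cytochrome P450 families 1 to 3 (-0.08 and 0.20) and hepatocyte markers (-0.04 and 0.15). How many members had an unadjusted interaction p under the threshold moved with the scaling and with array 24. The median of the 18 beta-oxidation genes was -0.18 in the HFD line and 0.20 in the chow line, and 12 had an unadjusted interaction p under the threshold, against 9.71% of all probe sets. After quantile normalization the medians were -0.04 and 0.15 and 4 of 18 did so, against 6.67% of all probe sets. Without array 24, as deposited, the HFD-line median was -0.07 and 6 of 18 did so, against 7.12% of all probe sets. Eci1, an enoyl-CoA isomerase of that list, gave -0.45 ± 0.23 in the HFD line and 0.61 in the chow line, with an unadjusted interaction p of 0.00256. For oxidative phosphorylation the medians were -0.15 and 0.10, with 16 of 40 under the threshold as deposited, 3 of 40 after quantile normalization and 11 of 40 without array 24. Cytosolic ribosomal proteins gave -0.16 and 0.14, with 14 of 27, 4 of 27 and 9 of 27 in the same order.

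**Figure D5:**
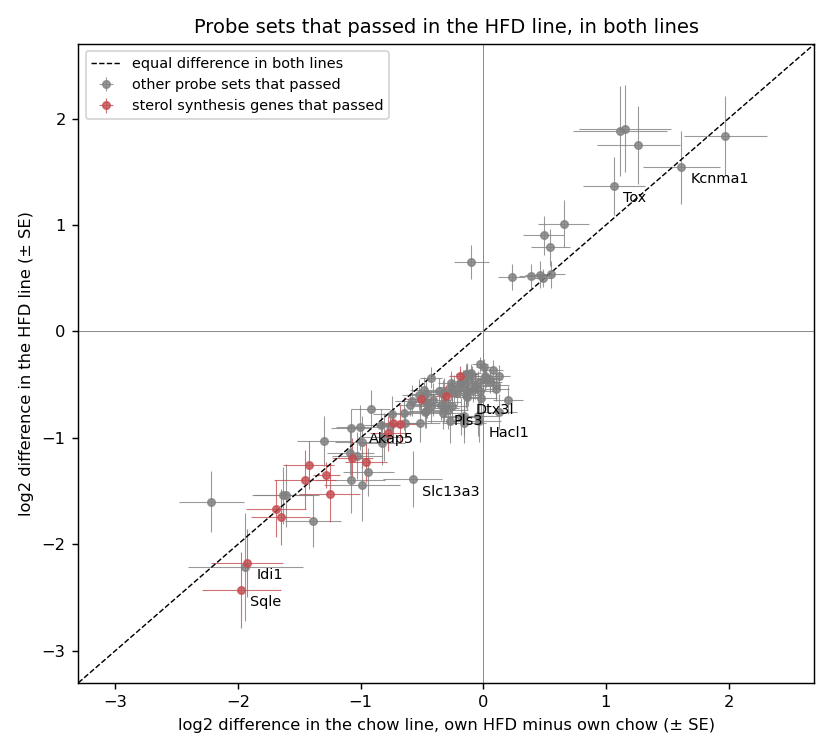
Each probe set that passed in the HFD line, with its log2 difference (HFD minus chow) in the chow line on the x axis and in the HFD line on the y axis, both ± SE; red marks sterol synthesis genes and the dashed line marks equal differences. The sterol genes lie below 0 on both axes, with Sqle the lowest at -2.43 in the HFD line and -1.97 in the chow line; the points were chosen on the y axis values.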

How the data were processed

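The labels' protocols give 200 ng of total RNA per array. The submitters' processing notes name PLIER and Affymetrix Expression Console, and the deposited values are intensity on a linear scale, with versions and settings for background and normalization not stated in the sources at hand. Here 20917 probe sets were taken as log2(value + 16), which understates changes at low signal, and the 25% with the lowest mean (5230) were left out. limma 3.58.1 in R 4.3.3 fitted 4 group means over all 24 arrays with an intensity trend, and the code was tested on simulated data. The number of arrays limits the precision. Symbols came from GEO's platform table and RefSeq: 18197 probe sets had 1 gene, 960 several and 1760 none here. In lists a gene stands by its brightest probe set.

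Named by rule were the 15 largest rises and falls, the tested sterol genes, each list's passing members (otherwise the 2 smallest p) and the 5 calls with the smallest interaction p; only probe sets with a single gene symbol were eligible. Members, lists and rule were chosen with earlier results of these data known. No 2 columns were identical. Alternatives varied scaling, filter, offset, variance model, array weights and arrays.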

Additional observations from a re-analysis of the deposited data

Results flagged for a closer look

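Single arrays far from the rest of their group were sought with Dixon's test in 298 groups of named probe sets. Chance alone flags about 1 in 20, and the 15 that were found are close to that share. Among genes that passed, Sqle stood at 9.58 on chow array 39 against 10.47 to 10.84 on the others, and Aacs at 7.90 on chow array 42 against 8.44 to 8.71. Kcnma1 stood at 7.47 on HFD array 45 against 8.60 to 8.92. Zfp354a was high on chow array 38, at 8.23 against 7.26 to 7.59, and Tsc22d1 low on chow array 41, at 10.46 against 11.18 to 11.28. Acsf2 stood at 9.45 on chow array 39 against 10.16 to 10.56. HFD array 47 was high for Abcc3, at 7.63 against 6.90 to 6.99, and for Fads3, at 8.44 against 7.28 to 7.48.

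Among genes that did not pass, array 47 was high for the quinone reductase Nqo1, at 10.002 against 9.54 to 9.66. Array 24 was low for the oestrogen receptor Esr1 (9.37 against 9.87 to 10.04), for the insulin receptor substrate Irs1 (8.55 against 8.86 to 8.98) and for the ribosomal gene Rpl32 (11.34 against 11.62 to 11.71). Rpl32 was also low on chow array 40, at 11.72 against 11.88 to 11.96, and the red cell gene Slc4a1 was low there, at 6.39 against 7.25 to 7.69. The urea cycle gene Cps1 was high on chow array 38, at 13.25 against 12.91 to 12.96.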

How the results depend on the processing

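Rises and falls numbered 15 and 103 as deposited. They were 34 and 56 after quantile normalization, 32 and 39 after centring over the probe sets tested, and 25 and 73 after centring over the whole table, a setting chosen after seeing the data. Array weights gave 22 and 164. Leaving out arrays 21, 22, 24 and 25 gave 10 and 67, or 27 and 39 with quantile normalization, and a block for those arrays with quantile normalization gave 50 and 81. Leaving out 1 array gave 5 to 15 rises and 49 to 102 falls. Other filters, offsets and variance models gave counts within 1.5 times of the main ones. The interaction count was 0 in every setting that was run. Among named genes near 0, centring turned Fgb to 0.0056, Cps1 to 0.0467 and S100a9 to 0.0414. With 1 array left out, Slc4a1 ran from -0.0493 to 0.3526 and Vnn1 from -0.1166 to 0.3949. The cause was not tested. No paired analysis was possible because no replicate number is shared between the groups. Signal near background limits the dim probe sets.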

Other observations

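After quantile normalization, 19 further probe sets were higher and 4 lower that had not passed as deposited. Among the lower was Wnt4, a signal of the Wnt family, at -0.47 (adjusted p = 0.028, and 0.076 as deposited in limma's fit). It was singled out after its values were seen.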
